A study of Drosophila melanogaster with 18 samples.

Results

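Mitochondrial ribosomal protein genes were taken as the protein-coding genes whose FlyBase symbol starts with mRpL or mRpS. The rule, which uses no measured value, found 73 of the 17611 genes in the count table, 47 with an mRpL symbol and 26 with an mRpS symbol. They are called large-subunit and small-subunit genes below by symbol alone. Of the 73 genes, 72 passed the filter on low counts and were tested, 46 of the large and 26 of the small subunit. The gene that did not pass, mRpL53, had no count in any library. The members lie on chromosome arms 2L (12), 2R (12), 3L (17), 3R (21) and X (11).

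The mitochondrial ribosome translates the mRNAs of the mitochondrial genome, which encode subunits of the oxidative phosphorylation complexes. Its RNAs are transcribed in the mitochondrion, whereas its proteins are encoded in the nucleus, made in the cytosol and imported. In the Drosophila ovary, germline mitochondria multiply and are handed on to the egg, so this machinery serves both the ovary and the next generation.

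Poly-A RNA of Drosophila melanogaster ovaries, labelled as stages 1 to 7, was sequenced from wild-type flies of the LP ("low plasticity") and HP ("high plasticity") lines, each 1 inbred genotype. The question addressed is how ovaries in reproductive diapause, an arrest of egg production, differ from those of flies that keep reproducing. Each line gave diapause ovaries (12 °C), reproductive ovaries (12 °C) and age-control ovaries (25 °C, flies of 28 days), with 3 libraries in each of the 6 groups. The labels give no age for the 12 °C flies, so any comparison with the age controls joins temperature and possibly age. For diapause ovaries it joins reproductive state as well. These cannot be told apart. Whether reproductive ovaries and age controls also differ in reproductive state was not tested. With 1 inbred genotype to a line, a difference between lines is a difference between those genotypes and cannot be extended to plasticity in general.

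Total counts per library were 14352846 to 21343992. Germline markers were present in every library, with vas at 237 to 312, osk at 270 to 520 and piwi at 245 to 354 CPM (a gene's counts relative to the TMM-scaled library total, the unit of all levels below unless a length is named). Of the fat-body list, Fbp1, Fbp2, Lsp1alpha and Lsp2 stayed at or below 0.654 CPM, while apolpp reached 38.3 CPM and the yolk protein genes, which follicle cells also express, reached 4270 CPM (Yp2). Of the haemocyte list, He, lz, NimC1, eater and Sr-CI stayed at or below 0.912 CPM, while Hml reached 4.91, Pxn 31.9, srp 76.9 and crq 264 CPM and the basement-membrane collagen genes vkg and Col4a1 reached 902 and 1450 CPM. In bulk samples such as these, fewer cells of a type and less RNA per cell cannot be told apart. HP age-control replicate 2 stood apart from its group in the mitoribosomal genes. The median deviation of the 72 genes from their own mean over 18 libraries was -0.02 (log2) in that library, against -0.28 and -0.24 in HP age-control replicates 1 and 3. Without it, the summed share described next was 0.301% and 0.309% in the HP age controls. For the mitoribosomal genes, calls and medians of each comparison that rests on the HP age controls are also given without it. Changed calls of single genes are given for the comparisons within HP and for some genes elsewhere. Counts past a fold, counts over both lines or all states, and many marker and list values are given with it only.

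As a summed share of all counts, the mitoribosomal genes made up 0.357% ± 0.0069 in LP diapause, 0.357% ± 0.0037 in LP reproductive and 0.316% ± 0.0039 in LP age-control ovaries (SD over 3 libraries). In the HP line they made up 0.359% ± 0.015 in diapause, 0.347% ± 0.0040 in reproductive and 0.320% ± 0.026 in age-control ovaries (SD over 3 libraries). Gene by gene, the median deviation was 0.11 to 0.17 (log2) in the LP diapause libraries, 0.10 to 0.11 in the LP reproductive libraries and -0.28 to -0.21 in the LP age controls. The matching HP values were 0.10 to 0.20 in diapause, 0.04 to 0.08 in reproductive and -0.28 to -0.02 in age-control libraries. In both lines the 6 libraries from 12 °C lay above the 3 from 25 °C. The same medians over all tested genes stayed within 0.0203 of 0 in every library.

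**Figure D1:**
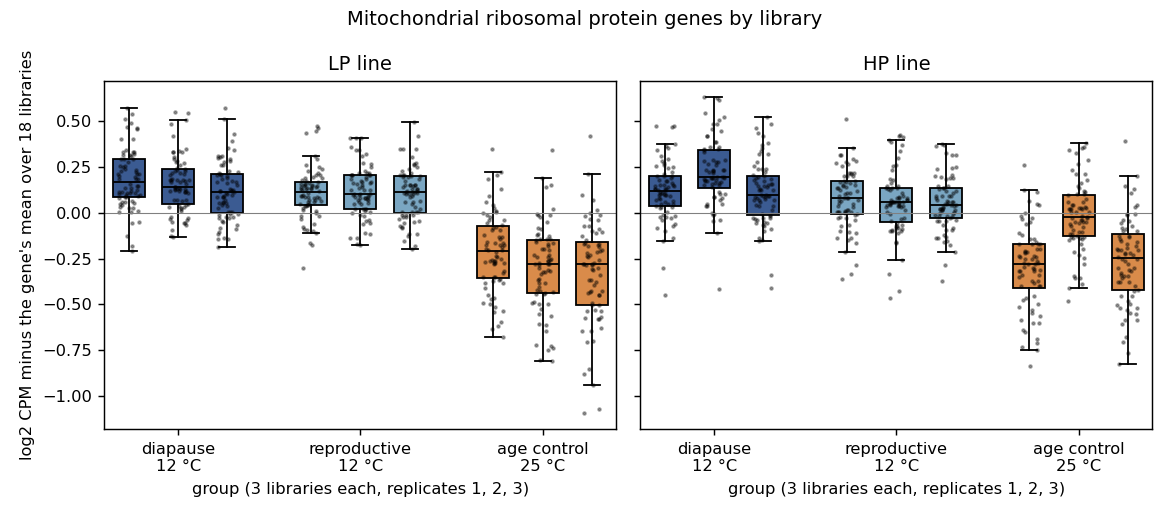
Deviation of each of the 72 tested genes (points; boxes give median and quartiles, whiskers 1.5 times the interquartile range) from its own mean over 18 libraries, in log2 CPM, for the LP line (left) and the HP line (right). In each line the 12 °C libraries sit above the 25 °C age controls, and HP age-control replicate 2, with a median of -0.02, sits between them.

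Exon sharing limits some of these genes. Exons of 43 members overlap those of another gene in the table, for 42 of them on the opposite strand and for 3 on the same strand. They are mRpL1, mRpL2, mRpL4, mRpL9, mRpL10, mRpL11, mRpL13, mRpL15, mRpL16, mRpL17, mRpL18, mRpL23, mRpL24, mRpL28, mRpL30, mRpL32, mRpL34, mRpL35, mRpL39, mRpL41, mRpL42, mRpL43, mRpL44, mRpL47, mRpL48, mRpL50, mRpL51, mRpL53, mRpS2, mRpS9, mRpS14, mRpS16, mRpS18C, mRpS21, mRpS22, mRpS23, mRpS24, mRpS25, mRpS28, mRpS29, mRpS31, mRpS33 and mRpS34. No count was found for any of the 132 genes of the table that lie wholly inside exons of opposite-strand genes, nor for any of the 321 that lie wholly inside exons of same-strand genes. Reads over shared exon bases were therefore not counted for those genes on either strand. The shared part exceeded 20% of the exon bases in 8 members. It was 100% in mRpL53 (2R:13954195-13955664), all of whose 829 exon bases lie in exons of CG33155 on the same strand, so its 0 counts say nothing of its expression. The others were mRpS24 at 55.3%, mRpS21 at 48%, mRpL13 at 35.2%, mRpS14 at 32% (with Naa15-16, beside 3.8% with CG32533), mRpS9 at 25.1%, mRpL17 at 23.6% and mRpL48 at 20.8%.

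The tested genes were expressed at related levels. In CPM per kilobase of exon, their median over 18 libraries was 50.4, against 15.98 for all 9037 tested genes, and the highest gene exceeded the lowest 5.96-fold. The large subunit had a median of 49.8 and the small subunit 53.0 on this scale. The 5 highest were mRpL12 at 151.4, mRpL30 at 112.3, mRpL28 at 88.3, mRpL14 at 83.7 and mRpS18A at 83.3. mRpL12 encodes the stalk protein, which recruits translation factors and which, in bacteria, is present in several copies per ribosome while most other proteins are present once. The 5 lowest were mRpS21 at 33.9, mRpL48 at 30.8, mRpL27 at 27.6, mRpS24 at 26.2 and mRpL21 at 25.4. Of these, mRpS21 and mRpS24 share much of their exon length. Per kilobase of unshared exon, mRpS21 stood at 65.2 (rank 21 in place of 68) and mRpS24 at 58.7 (rank 29 in place of 71). On the unshared scale 4 of the 5 highest and 2 of the 5 lowest were the same genes.

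**Figure D2:**
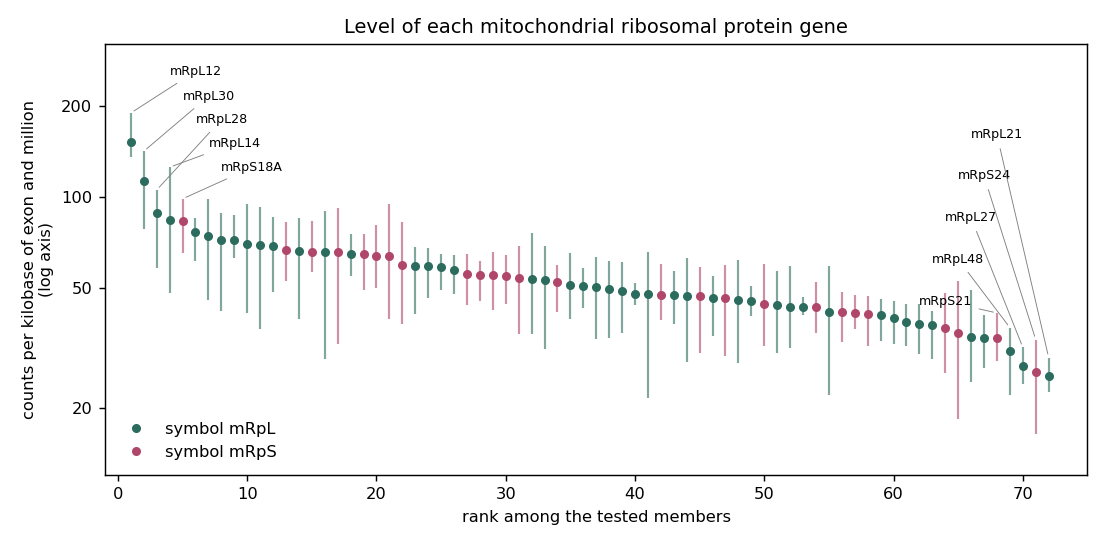
CPM per kilobase of exon (log axis) of the 72 tested genes, ranked, with points for the mean over 18 libraries and lines for the lowest and highest library. The genes run from 151.4 for mRpL12 to 25.4 for mRpL21. Above mRpS10 at rank 13, mRpS18A at rank 5 is the only mRpS gene, and below it mRpL and mRpS genes are mixed.

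The 3 genes that share a number, mRpS18A, mRpS18B and mRpS18C, are paralogues, each related to the same bacterial protein. In mammals the counterpart of mRpS18A sits in the large subunit. On the same scale, mRpS18A averaged 83.3, mRpS18B 41.4 and mRpS18C 35.3. For mRpS18C the libraries ranged more widely, 18.4 to 52.5, than for mRpS18A, 65.2 to 98.3, or mRpS18B, 33.1 to 48.3.

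Diapause ovaries were first set against age controls. Most mitoribosomal genes were higher in diapause, in both lines, by modest amounts. In LP, 56 of 72 were called higher (background 36.6% of all tested genes) and 3 lower (background 35.3%), at an adjusted p under 0.05 in edgeR's quasi-likelihood test. In HP, 53 were called higher (background 34%) and 4 lower (background 34.7%), 57 in all (background 68.6%). The median log2 fold change was 0.41 in LP (all tested genes 0.03) and 0.30 in HP (all tested genes 0.01). Rises past 1.5-fold numbered 27 in LP and 14 in HP, and changes past 2-fold numbered 4 in LP and 1 in HP. Shares of all tested genes past these folds were not computed. The median absolute log2 fold change was 0.41 in LP (all tested genes 0.56) and 0.31 in HP (all tested genes 0.50). Both symbol groups took part: 36 of 46 mRpL and 20 of 26 mRpS genes were called higher in LP, and 34 and 19 in HP. In both lines 48 genes were called higher, which is 48 of the 56 LP calls and 48 of the 53 HP calls, and 3 were called lower in both. Over all tested genes 27.3% were called higher in both lines and 29.1% lower.

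These splits depend on how libraries are scaled. With total counts in place of TMM, the split was 38 higher and 8 lower in LP and 34 higher and 7 lower in HP. Over all tested genes, 2377 of 6606 calls were then higher in LP and 2431 of 6303 in HP. That scaling moved the median of all tested genes to -0.20 in LP and -0.13 in HP, and the mitoribosomal median to 0.18 in LP and 0.15 in HP, so the members stayed above the median gene. Of the genes called higher in LP, mRpL23, mRpL27, mRpL37, mRpS16 and mRpS23 stood below 0 with total counts (-0.02 to -0.04). Without HP age-control replicate 2, the HP split was 60 higher and 4 lower with a median of 0.36 (all tested genes: 3021 of 6182 calls higher). No HP call was lost and none changed sign without it, and mRpL1, mRpL3, mRpL4, mRpL20, mRpL52, mRpS28 and mRpS29 were called higher in addition. The HP log2 fold changes given below for rising genes were larger without it, for instance 1.18 for mRpL44, 1.01 for mRpL51, 0.88 for mRpL2 and 0.83 for mRpS22. Those of falling genes were -0.77 for mRpS5, -0.23 for mRpS7, -0.20 for mRpL12 and -0.21 for mRpL49. Among other genes whose exon length lies in the members' range (4283 genes), 36.3% were called higher and 32.4% lower in LP, and 35.3% higher and 30.8% lower in HP.

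The member that rose over 2-fold in both lines was mRpL44 (3R:5469463-5470636), a mitochondria-specific protein with a ribonuclease III fold whose human counterpart is mutated in a form of cardiomyopathy. It had 91.7, 92.7 and 96.9 CPM in LP diapause ovaries, against 51.5, 44.6 and 40.8 CPM in LP age controls. It had 95.7, 103.4 and 101.7 CPM in HP diapause ovaries, against 44.3, 52.8 and 43.3 CPM in HP age controls. In both lines the lowest diapause library lay well above the highest age control. The log2 fold change was 1.04 in LP (SE 0.0804, adjusted p 4.5e-10) and 1.10 in HP (SE 0.0806, adjusted p 3.3e-10).

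mRpL51 (2L:8516753-8517380), a small large-subunit protein with no bacterial counterpart, had 46.8, 47.3 and 46.9 CPM in LP diapause ovaries, against 25.9, 22.3 and 18.3 CPM in LP age controls. In HP it had 54.4, 55.6 and 56.3 CPM in diapause ovaries, against 27.1, 34.8 and 27.6 CPM in age controls. The groups did not overlap, and the log2 fold change was 1.09 in LP (adjusted p 4.5e-09) and 0.89 in HP (adjusted p 8.4e-08). mRpL41 and mRpL42, likewise mitochondria-specific, rose by 0.95 and 0.78 (log2) in LP and by 0.83 and 0.89 in HP. mRpL15, which has a bacterial counterpart, rose by 0.89 in LP and 0.91 in HP.

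For proteins at the catalytic centre and the peptide tunnel, members picked by role are given. mRpL2 (3L:11120847-11122041), the homologue of the bacterial protein that stabilises the peptidyl transferase centre, had 54.7, 55.3 and 58.5 CPM in LP diapause ovaries, against 29.4, 27.0 and 22.4 CPM in LP age controls. It had 65.4, 67.9 and 60.2 CPM in HP diapause ovaries, against 33.0, 49.1 and 36.3 CPM in HP age controls. The log2 fold change was 1.10 in LP (SE 0.117, adjusted p 9.0e-08) and 0.71 in HP (adjusted p 2.2e-05), with HP age-control replicate 2 the highest of its group. mRpL3, also near the catalytic centre, had 0.11 in LP (-0.12 with total counts) and 0.15 in HP and was not called. mRpL4, which reaches into the peptide exit tunnel, had -0.01 in LP and 0.17 in HP and was not called. Around the tunnel exit, mRpL22 rose by 0.68 in LP and 0.49 in HP, mRpL24 by 0.71 in LP and 0.57 in HP and mRpL47 (the L29 homologue) by 0.84 in LP and 0.74 in HP. mRpL23, a neighbour of these at the exit, had 0.21 in LP (adjusted p 0.036; -0.02 with total counts) and 0.01 in HP (not called; -0.14 with total counts).

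The stalk region was split. mRpL10, which anchors the stalk, rose by 0.46 in LP and 0.67 in HP, and mRpL11, at the stalk base, by 0.33 in LP and 0.35 in HP. mRpL12 (3L:8956791-8957584), the stalk protein itself, linked in Drosophila to the growth function of cyclin D and Cdk4, fell. It had 111.4, 101.8 and 100.6 CPM in LP diapause ovaries, against 128.3, 123.4 and 119.0 CPM in LP age controls. It had 99.96, 111.1 and 101.0 CPM in HP diapause ovaries, against 116.2, 139.6 and 121.5 CPM in HP age controls. The groups did not overlap in either line, and the log2 fold change was -0.24 in LP (adjusted p 0.0025) and -0.27 in HP (adjusted p 0.00086).

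In the small subunit, mRpS22 (3R:27916908-27918248), which has no bacterial counterpart, had 101.8, 99.1 and 104.4 CPM in LP diapause ovaries, against 54.8, 50.4 and 43.7 CPM in LP age controls. In HP it had 108.5, 122.7 and 108.9 CPM in diapause ovaries, against 65.9, 76.7 and 60.1 CPM in age controls. The fold change was 1.04 in LP (adjusted p 8.2e-10) and 0.75 in HP (adjusted p 1.1e-07). mRpS2, which lies between head and body of the subunit, rose by 0.86 in LP and 0.45 in HP, and the mitochondria-specific mRpS35 by 0.73 in LP and 0.60 in HP. The paralogues rose by 0.28 (mRpS18A), 0.43 (mRpS18B) and 0.75 (mRpS18C) in LP, and by 0.21, 0.24 and 0.59 in the same gene order in HP.

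Against this trend, mRpS5 (3L:24537236-24543534), a protein of the mRNA entry side whose worm homologue mrps-5 extends lifespan when knocked down, was lower in diapause. It had 64.7, 62.03 and 57.0 CPM in LP diapause ovaries, against 77.1, 76.6 and 81.0 CPM in LP age controls. It had 44.3, 45.3 and 45.4 CPM in HP diapause ovaries, against 72.4, 78.6 and 79.3 CPM in HP age controls. The HP diapause libraries were the lowest of these 4 groups and varied least. The log2 fold change was -0.35 in LP (SE 0.0662, adjusted p 7.6e-05) and -0.77 in HP (SE 0.0676, adjusted p 4.2e-09).

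mRpS7 (2L:10386662-10387652), in the head of the small subunit, had 50.01, 54.1 and 52.2 CPM in LP diapause ovaries, against 67.5, 65.9 and 66.9 CPM in LP age controls. In HP it had 54.5, 57.2 and 55.1 CPM in diapause ovaries, against 62.6, 73.9 and 66.4 CPM in age controls. The groups did not overlap, and the log2 fold change was -0.36 in LP (adjusted p 0.00019) and -0.28 in HP (adjusted p 0.0019). mRpL49 (X:12907105-12907942), a mitochondria-specific large-subunit protein, fell in HP by 0.28 (adjusted p 0.0032) and had a log2 fold change of 0.01 in LP, not called (-0.22 with total counts). The 4 genes called lower in HP and the 3 called lower in LP have no exon overlap with another gene, while 42 of the 72 tested genes do.

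The 7 genes called in neither line (17.4% of all tested genes) were mRpL1, mRpL3, mRpL4, mRpL21, mRpL38, mRpL54 and mRpS26. Called higher in LP and not called in HP were mRpL20, mRpL23, mRpL37, mRpL52, mRpS21, mRpS23, mRpS28 and mRpS29. Called higher in HP and not called in LP were mRpL46, mRpL50, mRpS17, mRpS31 and mRpS34. A call in 1 line alone is not a difference between lines, which is tested below.

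**Figure D3:**
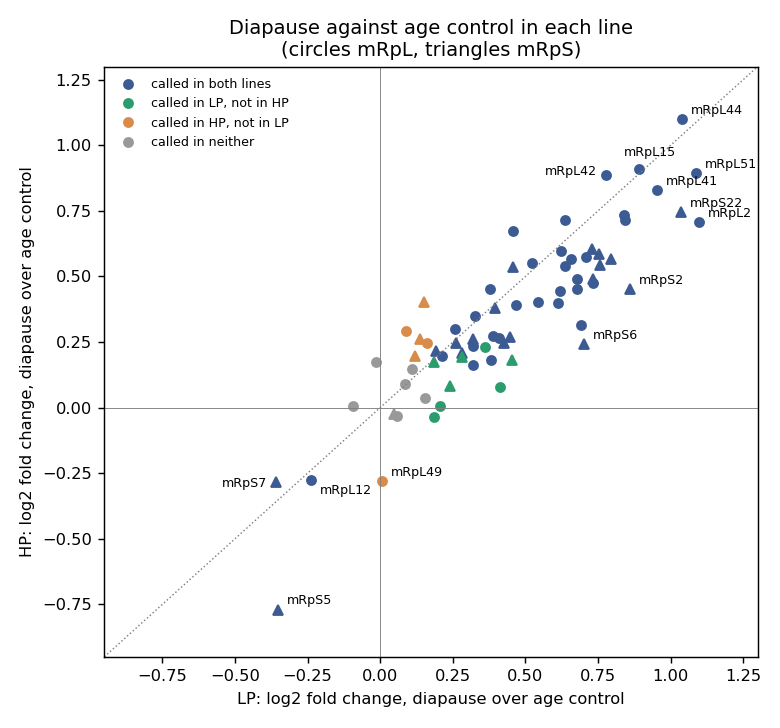
Log2 fold change of diapause over age control for each of the 72 tested genes, LP on the horizontal axis and HP on the vertical axis, with the dotted line marking equal values. Blue points were called in both lines, and most lie in the upper right, with mRpS5, mRpS7 and mRpL12 in the lower left and mRpL49 at 0.01 in LP and -0.28 in HP.

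Marker lists of other cell types and of the germline moved in this comparison. Of 9 germline markers, 6 were called higher and 2 lower in LP (median 0.42), and 4 higher and 3 lower in HP (median 0.03, and -0.04 without HP age-control replicate 2). Their summed share of counts was 0.285% to 0.313% in LP diapause libraries, against 0.214% to 0.231% in LP age controls, and 0.280% to 0.316% in HP diapause libraries, against 0.249% to 0.285% in HP age controls. Of 8 markers of early follicle and escort cells, 6 were called higher and 1 lower in each line (median 1.02 in LP and 0.50 in HP, where 4 higher and 1 lower were called without HP age-control replicate 2). Their share was 0.0575% to 0.0600% in LP diapause, against 0.0610% to 0.0631% in LP age controls, and 0.0602% to 0.0646% in HP diapause, against 0.0596% to 0.0687% in HP age controls. Of 4 tested fat-body markers, 1 was called lower in LP and 3 in HP. Of 19 eggshell genes, which late follicle cells express, 18 were called lower in LP and 19 in HP (17 without HP age-control replicate 2). Their summed share of counts was 0.111% to 0.295% in LP diapause libraries, against 1.13% to 1.52% in LP age controls, and 0.0305% to 0.0407% in HP diapause libraries, against 0.519% to 0.976% in HP age controls. Of 17 tested muscle-sheath genes, 14 were called higher in LP and 15 in HP. Their share was 0.183% to 0.215% in LP diapause, against 0.135% to 0.166% in LP age controls, and 0.203% to 0.229% in HP diapause, against 0.0795% to 0.0983% in HP age controls. Of 7 tested haemocyte-list genes, 2 were called higher in LP and 4 in HP. Their share was 0.172% to 0.226% in LP diapause, against 0.0721% to 0.0878% in LP age controls, and 0.208% to 0.251% in HP diapause, against 0.109% to 0.131% in HP age controls. The part of these cell types in the mitoribosomal changes was not tested.

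Diapause ovaries were next set against reproductive ovaries from the same temperature. No mitoribosomal gene was called in this comparison in either line. In LP, edgeR called 0 of 72 (background 1.45% in either direction, 0.343% higher, 1.11% lower). DESeq2 called 0 members and 447 genes in all (5.48% of those with an adjusted p there). In edgeR 1 member had an unadjusted p under 0.05, as did 1492 of all 9037 genes. In HP, edgeR called 0 of 72 (background 0.852% in either direction, 0.199% higher, 0.653% lower). DESeq2 called 0 members and 317 genes in all (4.15% on the same basis). In edgeR 8 members had an unadjusted p under 0.05, as did 1451 of all genes. The median log2 fold change was 0.04 in LP (all tested genes 0.01), with 53 of 72 values above 0 (52.09% of all tested genes). It turned to -0.00 with total counts as the scale (all tested genes -0.03), with 36 of 72 above 0. In HP it was 0.09 (all tested genes 0.00), with 68 of 72 above 0 (50.27% of all tested genes), and 0.05 without HP diapause replicate 2. With total counts the HP median was 0.05 (all tested genes -0.03), with 60 of 72 above 0. All 3 diapause libraries lay above all 3 reproductive libraries for 12 members in LP (background 13.4%) and for 18 in HP (background 13.7%). They lay below for 0 in LP (background 12.7%) and 2 in HP (background 14.4%). Other genes in the members' exon-length range had a median of 0.04 in HP, against -0.04 for longer genes.

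The smallest p in LP was that of mRpS22, with 101.8, 99.1 and 104.4 CPM in diapause ovaries, against 89.3, 85.3 and 91.1 CPM in reproductive ovaries. The groups did not overlap, but the log2 fold change of 0.20 (SE 0.0823) had an adjusted p of 0.21 in edgeR. mRpL9 had 0.14 (adjusted p 0.36) and mRpL15 had 0.13 (adjusted p 0.38).

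In HP, mRpL4 had the smallest p, with 56.1, 57.5 and 53.7 CPM in diapause ovaries, against 51.1, 44.1 and 47.9 CPM in reproductive ovaries. The groups did not overlap, and the log2 fold change was 0.23 (SE 0.0794) with an adjusted p of 0.18 in edgeR. mRpL49, with 35.7, 40.6 and 35.3 CPM in diapause ovaries, against 30.5, 32.7 and 33.8 CPM in reproductive ovaries, had 0.20 (adjusted p 0.22). mRpL27 had 0.21 (adjusted p 0.22).

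Averaged over both lines, the diapause effect was called for 1 member, mRpL4, with a log2 fold change of 0.18 (SE 0.0563, edgeR adjusted p 0.045). The background for calls in the higher direction was 3.52%, in the lower 5.94% and in either direction 9.46%. The LP libraries of mRpL4 did overlap, with 45.5, 49.6 and 41.6 CPM in diapause ovaries, against 38.4, 43.8 and 41.7 CPM in reproductive ovaries. The call was lost without any 1 of HP diapause replicates 1, 2 or 3, HP reproductive replicates 2 or 3, LP diapause replicates 1 or 2, or LP reproductive replicates 1 or 3 (adjusted p 0.0617 to 0.113). The median over the members was 0.07, with 66 of 72 above 0, and the median over all tested genes was 0.01. Eggshell genes took 0.111% to 0.295% of counts in LP diapause libraries, against 0.391% to 0.517% in LP reproductive libraries, and 0.0305% to 0.0407% in HP diapause libraries, against 0.118% to 0.212% in HP reproductive libraries. Averaged over lines, 14 of 19 eggshell genes were called lower and 10 of 17 muscle-sheath genes higher. Their part in these values was not tested.

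Reproductive ovaries from 12 °C were then set against the age controls from 25 °C, the same libraries that served as controls for diapause. In LP, 55 members were called higher (background 33.9%) and 3 lower (background 33.7%). With total counts as the scale these were 39 and 7, and 2220 of 6279 calls over all tested genes were higher. In HP, 45 were called higher (background 32.2%) and 4 lower (background 33.1%). With total counts they were 29 and 7, and 2316 of 5888 calls over all tested genes were higher. The median log2 fold change was 0.37 in LP and 0.23 in HP, and the medians over all tested genes were 0.00 and 0.01 in the same line order. Total counts moved the median of all genes to -0.19 in LP and -0.10 in HP, and that of the members to 0.18 in LP and 0.12 in HP. In both lines 42 genes were called higher (42 of the 55 LP and 42 of the 45 HP calls; 24.7% of all tested genes) and 3 lower (27% of all tested genes). A further 13 were called higher in LP and not called in HP, 3 the other way round, 1 was called lower in HP and not called in LP, and 10 were called in neither line (20.7% of all tested genes). Without HP age-control replicate 2, the HP split was 50 higher and 4 lower, with a median of 0.30 (all tested genes: 2833 of 5858 calls higher). mRpL9, mRpL45, mRpL46, mRpS18A and mRpS28 were called in addition. Germline markers were called higher for 6 of 9 in LP and 4 of 9 in HP, and early follicle and escort cell markers for 6 of 8 in LP and 4 of 8 in HP. Eggshell genes took 0.391% to 0.517% of counts in LP reproductive libraries, against 1.13% to 1.52% in LP age controls, and 0.118% to 0.212% in HP reproductive libraries, against 0.519% to 0.976% in HP age controls. Muscle-sheath genes took 0.130% to 0.170% in LP reproductive libraries, against 0.135% to 0.166% in LP age controls, and 0.178% to 0.188% in HP reproductive libraries, against 0.0795% to 0.0983% in HP age controls. Their part in these changes was not tested.

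In LP the largest rise was that of mRpL51, with 43.9, 46.6 and 45.9 CPM in reproductive ovaries, against 25.9, 22.3 and 18.3 CPM in age controls, a log2 fold change of 1.04 (adjusted p 1.3e-08). It was followed by mRpL2 at 0.98, mRpL44 at 0.94, mRpL41 at 0.84 and mRpS22 at 0.84. In HP it was that of mRpL44, with 88.2, 98.6 and 91.8 CPM in reproductive ovaries, against 44.3, 52.8 and 43.3 CPM in age controls, a log2 fold change of 0.99 (adjusted p 2.0e-09). It was followed by mRpL15 at 0.87, mRpL42 at 0.80, and mRpL33 and mRpL10 at 0.67 each. No reproductive library of these 2 leading genes overlapped its age controls.

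mRpS5 was the member that fell furthest in both lines. It had 59.0, 60.8 and 66.2 CPM in LP reproductive ovaries, against 77.1, 76.6 and 81.0 CPM in LP age controls, a log2 fold change of -0.33 (adjusted p 0.00016). It had 49.6, 43.7 and 49.6 CPM in HP reproductive ovaries, against 72.4, 78.6 and 79.3 CPM in HP age controls, a log2 fold change of -0.69 (adjusted p 2.4e-08). The groups stood clear of each other in both lines. mRpS7 fell by 0.29 in LP and by 0.37 in HP. mRpL12 fell by 0.31 in HP and by 0.16 in LP (adjusted p 0.038). The LP call of mRpL12 was lost without LP reproductive replicate 1, 2 or 3 or without LP age-control replicate 1 or 2 (adjusted p 0.0545 to 0.122).

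mRpL49 had 43.2, 41.6 and 39.4 CPM in LP reproductive ovaries, against 43.0, 39.8 and 38.2 CPM in LP age controls, which overlapped (log2 fold change 0.04, adjusted p 0.67). It had 30.5, 32.7 and 33.8 CPM in HP reproductive ovaries, against 42.8, 50.4 and 42.3 CPM in HP age controls, with no overlap (-0.48, adjusted p 1.8e-05).

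**Figure D4:**
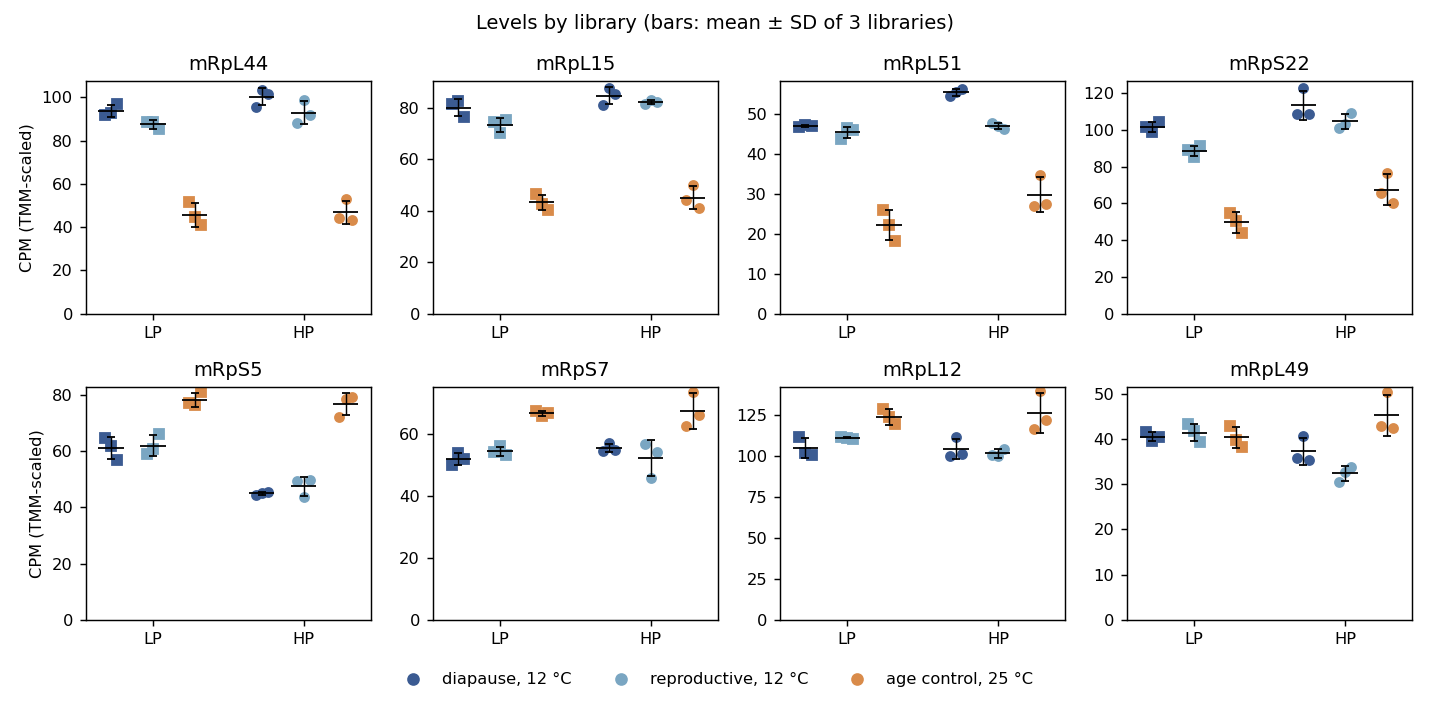
CPM of 8 members in every library, with the LP line left (squares) and the HP line right (circles) in each panel, and black bars for the mean ± SD of 3 libraries. The upper row shows genes higher in both 12 °C groups than in the age controls, and the lower row shows mRpS5, mRpS7 and mRpL12, which were lower, and mRpL49, which was lower in HP.

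The LP line was set against the HP line within each state. In diapause, 8 members were called higher in LP (background 17.4%) and 8 lower (background 15.2%), 16 in all (background 32.6%), with a median log2 fold change of 0.01. In reproductive ovaries, 14 were called higher (background 18.4%) and 7 lower (background 16.7%), with a median of 0.06. The 21 calls in reproductive ovaries (background 35.1%) became 11 without HP or LP reproductive replicate 3 (background 27.3% and 26.5%). They became 13 without HP or LP reproductive replicate 2 (background 24.5% and 26.5%). In age controls, 4 were called higher (background 19.9%) and 17 lower (background 21.9%), with a median of -0.09. This last split was 9 higher and 11 lower with total counts as the scale, and 7 higher and 12 lower, with a median of 0.01, without HP age-control replicate 2. For all tested genes, 2472 of 3981 calls were higher with total counts and 1739 of 3842 without that library. Over the 3 states, 2 members were called higher in LP every time (background 7.87%), 5 were called lower every time (background 7.26%), none was called in opposite directions, and 36 were called in no state (39.6% of all tested genes). No member differed by over 2-fold between the lines. In age controls 16 of 17 muscle-sheath genes were called higher in LP, and 7 of 19 eggshell genes were called higher in LP in diapause, 11 in reproductive and 7 in age-control ovaries. In age controls 5 of 9 germline markers were called lower in LP and 0 higher (median -0.30), and 3 of 8 early follicle and escort cell markers lower and 1 higher (median -0.40). Without HP age-control replicate 2, 13 muscle-sheath and 9 eggshell genes were called higher in LP in age controls. Called lower in LP there were then 7 germline markers and 4 early follicle and escort cell markers. The part of these cell types in the line differences was not tested.

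The 2 called higher in LP in all states were mRpL52 and mRpL24. mRpL52 (2R:7673721-7674400), a mitochondria-specific protein, had 40.4, 42.2 and 36.5 CPM in LP diapause, against 23.3, 26.6 and 22.7 CPM in HP diapause. It had 40.0, 38.2 and 40.6 CPM in LP reproductive, against 22.8, 21.4 and 22.2 CPM in HP reproductive ovaries. It had 32.7, 28.5 and 28.4 CPM in LP age controls, against 19.6, 27.6 and 21.4 CPM in HP age controls. All LP libraries lay above the HP libraries of the same state, most closely in the age controls. The log2 fold change was 0.72 in diapause (SE 0.103, adjusted p 2.0e-05), 0.84 in reproductive ovaries (adjusted p 2.5e-06) and 0.38 in age controls (adjusted p 0.0046).

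mRpL24 (2L:4944256-4945361), at the exit of the peptide tunnel, had 81.5, 82.9 and 79.7 CPM in LP diapause, against 60.3, 60.7 and 57.6 CPM in HP diapause. Its log2 fold change was 0.45 there (adjusted p 2.7e-05), 0.40 in reproductive ovaries and 0.32 in age controls. mRpS2 (2L:4849439-4850419) had 75.9, 75.7 and 76.1 CPM in LP diapause, against 53.4, 52.9 and 49.6 CPM in HP diapause (0.55, adjusted p 1.9e-06), and differed by 0.49 in reproductive ovaries. In age controls it had 44.0, 42.6 and 39.0 CPM in LP, against 35.03, 41.9 and 37.0 CPM in HP, which overlapped (0.14, adjusted p 0.098), and was called there without HP age-control replicate 2 (0.20, adjusted p 0.014).

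mRpS5 was 0.44 higher in LP than in HP in diapause and was also called higher in reproductive ovaries. mRpL34 was 0.37 higher in diapause and 0.40 in reproductive ovaries. mRpL41 was 0.40 higher in reproductive ovaries and was also called higher in diapause. The diapause call of mRpL34 was lost without HP diapause replicate 2 or 3 or LP diapause replicate 1 or 2 (adjusted p 0.0555 to 0.11). Its reproductive call was lost without HP reproductive replicate 2 or LP reproductive replicate 3 (adjusted p 0.0505 and 0.0553). In age controls mRpL10 was 0.31 and mRpS30 0.13 higher in LP, and mRpS30 was also called higher in diapause. The age-control call of mRpS30 was lost without any 1 of the 6 libraries except HP age-control replicate 3 (adjusted p 0.0581 to 0.122).

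The 5 called lower in LP in all states were mRpL14, mRpS18C, mRpS26, mRpS29 and mRpS35. mRpL14 (X:2343997-2344649), which in bacteria forms part of the contact between the subunits, had 52.9, 51.5 and 48.6 CPM in LP diapause, against 72.9, 81.7 and 71.3 CPM in HP diapause. It had 46.9, 46.8 and 49.9 CPM in LP reproductive, against 75.03, 69.5 and 68.0 CPM in HP reproductive ovaries. It had 36.1, 31.2 and 32.2 CPM in LP age controls, against 46.7, 56.4 and 46.0 CPM in HP age controls. The lines did not overlap in any state, and the log2 fold change was -0.56 in diapause (adjusted p 1.8e-05), -0.57 in reproductive ovaries (adjusted p 1.5e-05) and -0.58 in age controls (adjusted p 8.2e-06).

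Of the S18 paralogues, mRpS18C (3R:30423974-30424556) differed between lines. It had 19.3, 17.3 and 17.4 CPM in LP diapause, against 23.0, 27.7 and 23.99 CPM in HP diapause (-0.47, adjusted p 0.0037). The log2 fold change was -0.31 in reproductive ovaries (adjusted p 0.038) and -0.63 in age controls (adjusted p 0.00020). The reproductive call was lost without HP reproductive replicate 1, 2 or 3 or LP reproductive replicate 1 or 3 (adjusted p 0.0565 to 0.115). mRpS18A had 0.16, 0.18 and 0.09 and mRpS18B had 0.08, 0.11 and -0.10 in diapause, reproductive and age-control ovaries, none of them called.

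mRpS26 had -0.29, -0.24 and -0.36, and mRpS35, another mitochondria-specific protein, -0.30, -0.24 and -0.42, over the same 3 states. mRpS29, the homologue of the GTP-binding human protein DAP3, had -0.18, -0.18 and -0.34. In diapause mRpL4 was also lower in LP, by -0.29, and in reproductive ovaries mRpL42, by -0.27, and mRpS22, by -0.24. The call of mRpL42 was lost without HP reproductive replicate 2 or 3 (adjusted p 0.0698 and 0.0534), and that of mRpS22 without HP reproductive replicate 2 or 3 or LP reproductive replicate 1 or 2 (adjusted p 0.0531 to 0.0926). In age controls mRpL2 (-0.59), mRpS6 (-0.45) and mRpS22 (-0.45) were lower in LP as well. Whether sequence differences between the lines change the number of reads that could be mapped to these genes was not tested.

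**Figure D5:**
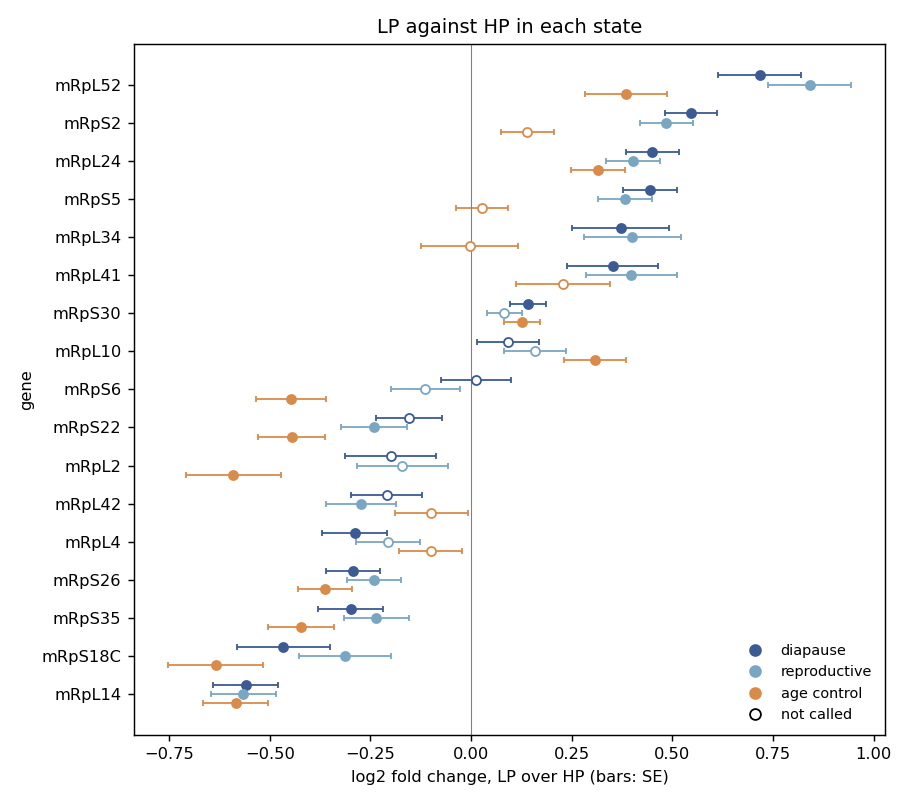
Log2 fold change of LP over HP (bars: SE) in diapause, reproductive and age-control ovaries for the members named in this comparison, with filled symbols for calls. mRpL52 and mRpL24 at the top and mRpL14, mRpS18C, mRpS35 and mRpS26 at the bottom were called in all 3 states. mRpS29, also called lower in all 3 states, is not shown. mRpS2, mRpS5, mRpL34 and mRpL41 were called in both 12 °C states and not in the age controls.

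The difference between the lines in each effect was tested directly, as the LP effect minus the HP effect. For diapause against reproductive ovaries edgeR called 0 members (background 0%), and DESeq2 called 0 members and 6 genes in all. In edgeR 1 member had an unadjusted p under 0.05, as did 366 of all genes. The smallest p-values belonged to mRpL27 (-0.27), mRpL49 (-0.23) and mRpS7 (-0.15), each with an adjusted p of 1.

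For diapause against age control, 4 members were called with the larger value in LP (background 11.1%) and 0 with the smaller (background 7.26%). They were mRpS6, mRpS5, mRpS2 and mRpL28. mRpS6 had 29.6, 36.7 and 33.3 CPM in LP diapause, against 22.8, 19.0 and 19.5 CPM in LP age controls, and 30.5, 34.1 and 34.3 CPM in HP diapause, against 25.8, 29.6 and 28.2 CPM in HP age controls. The diapause groups of the lines overlapped, while the LP age controls lay below the HP age controls, and the difference in effect was 0.46 (SE 0.122, adjusted p 0.011). For mRpS5 the difference was 0.42 (adjusted p 0.0037): it fell in both lines, less in LP, and the age controls of the lines overlapped. For mRpS2 it was 0.41 (adjusted p 0.0039), a larger rise in LP.

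mRpL28, among the most abundant members, rose in both lines with a difference of 0.26 (adjusted p 0.033). That call was lost without HP diapause replicate 1 or 3, HP age-control replicate 2, LP diapause replicate 1 or 3, or LP age-control replicate 2 or 3 (adjusted p 0.0511 to 0.0766). The count of 4 (background 18.4% in either direction) rose to 10 without HP age-control replicate 1 (16.5%). It rose to 7 without HP diapause replicate 2 (16.3%) or LP age-control replicate 1 (18.9%). It stood at 3 with the larger and 1 with the smaller value in LP without HP age-control replicate 2 (19.8%). The median difference over the members was 0.10, and 0.00 without HP age-control replicate 2.

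For reproductive against age control, 6 members were called with the larger value in LP (background 9.69%) and 0 with the smaller (background 6.92%). The largest difference was that of mRpL49 (0.52, SE 0.11, adjusted p 0.0022), whose libraries are given above. mRpL52 had 0.46 (adjusted p 0.034), mRpS5 0.35 (adjusted p 0.012), mRpS2 0.35 (adjusted p 0.013), mRpL37 0.29 (adjusted p 0.015) and mRpL28 0.28 (adjusted p 0.023). mRpL37, mitochondria-specific, had 66.6, 70.4 and 69.7 CPM in LP reproductive, against 62.02, 59.4 and 59.9 CPM in LP age controls, and 61.4, 60.9 and 60.4 CPM in HP reproductive, against 63.3, 66.5 and 66.5 CPM in HP age controls. The LP effect was 0.19 (adjusted p 0.0056), whereas the HP effect of -0.10 was not called (adjusted p 0.12), and the call on the difference was lost with total counts (adjusted p 0.0666).

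The call of mRpL52 was lost without HP reproductive replicate 2 or 3, HP age-control replicate 2, LP reproductive replicate 1 or 3, or LP age-control replicate 2 or 3 (adjusted p 0.0582 to 0.0857). That of mRpL28 was lost without HP reproductive replicate 1 or LP age-control replicate 3 (adjusted p 0.0584 and 0.0556). The count of 6 (background 16.6% in either direction) became 14 without HP age-control replicate 1 (15.4%) and 11 without LP age-control replicate 1 (17.2%). It became 5 without HP age-control replicate 2 (16.2%), 4 without LP age-control replicate 3 (14.6%) and 2 with total counts as the scale (17.1%). The median difference was 0.15, and 0.06 without HP age-control replicate 2. Germline markers were called with the larger value in LP for 7 of 9 (diapause) and 6 of 9 (reproductive against age control), with 0 smaller and medians of 0.34 and 0.35. Early follicle and escort cell markers had 2 of 8 larger and 0 smaller, and 3 larger and 1 smaller, in the same order. Muscle-sheath genes had 14 of 17 with the smaller value in LP in both tests. The part of these cell types in the differences was not tested.

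Other genes of mitochondrial translation and its surroundings, from lists chosen for this purpose, are given for diapause against age control as called higher, called lower and tested. The mitoribosomal proteins tko (S12) and bonsai (S15), which the symbol rule leaves out, had log2 fold changes of 0.71 (adjusted p 5.9e-09) and 0.11 (adjusted p 0.16) in LP and of 0.83 (adjusted p 1.0e-09) and 0.26 (adjusted p 0.0016) in HP. With total counts bonsai stood at -0.12 in LP. tko is known for mutations that make flies sensitive to mechanical shock.

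Of 8 mitochondrial translation factors, 6 were higher and 1 lower in LP and 3 were higher and 1 lower in HP (with total counts 5 and 2 in LP, 3 and 4 in HP). The elongation factor gene mEFTu2 rose by 1.11 in LP and 0.58 in HP, while the release factor gene mRF1 fell by 0.97 in LP and by 1.14 in HP. Of 16 mitochondrial aminoacyl-tRNA synthetases, 6 were higher and 4 lower in LP and 4 were higher and 7 lower in HP (with total counts 3 and 9 in LP, 2 and 7 in HP). TrpRS-m fell by 0.84 in LP and by 0.88 in HP, whereas CysRS-m rose by 0.74 in LP and 0.77 in HP. Of 17 genes of mitochondrial RNA and DNA expression, 9 were higher and 4 lower in LP and 5 were higher and 2 lower in HP (with total counts 7 and 7 in LP, 4 and 5 in HP). mtSSB, the single-strand binding protein of mitochondrial DNA, rose by 0.99 in LP and 1.11 in HP.

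The 13 protein-coding genes of the mitochondrial genome, which the mitoribosome translates, had 12 higher and 0 lower in LP (median 0.76) and 11 higher and 0 lower in HP (median 0.51). Of 70 nuclear oxidative phosphorylation genes, 65 were higher and 1 lower in LP (median 0.46) and 53 were higher and 2 lower in HP (median 0.32). Cytosolic ribosomal protein genes had 88 of 88 higher in LP (median 1.01) and 86 of 88 in HP (median 0.55), with 0 lower. With total counts the medians of these 3 lists stayed above 0 in both lines, at 0.54, 0.23 and 0.78 in LP and 0.37, 0.18 and 0.41 in HP, in the order given. The mitoribosomal medians of 0.41 in LP and 0.30 in HP lay below those of the cytosolic ribosomal proteins in both lines. In the line difference, 67 of 88 cytosolic ribosomal protein genes were called with the larger value in LP, beside 4 of 72 mitoribosomal genes, and 61 of 88 beside 3 of 72 without HP age-control replicate 2. Without that library the HP medians were 0.65 for cytosolic ribosomal proteins (86 of 88 higher) and 0.57 for mitochondrially encoded genes (9 of 13 higher). They were 0.44 for nuclear oxidative phosphorylation genes (61 of 73 higher) and 0.36 for the mitoribosomal genes. No test of the lists against each other was made.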

How the data were processed

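The deposited table holds raw read counts per gene (whole numbers for 17611 genes and 18 libraries), in the layout that featureCounts writes, per the file headers. The submitters' processing notes also name Trimmomatic, STAR and DESeq2. Their versions and settings, like the build, are not given in the sources used here. Poly-A libraries were made with a directional kit, per the labels' protocols. Whether counting used strand or reads with several matches was not stated. The labels call the 3 libraries of a group biological replicates without naming their source, so p-values measure the spread between these libraries.

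Symbols came from the BDGP6.54 annotation by gene identifier (17556 matched). All 73 members have the same chromosome, start and end there as in the table, and coordinates are the table's, counted from 1. Counts were scaled by TMM, filtered with filterByExpr (9037 genes) and fitted with edgeR 4.0.16 (robust quasi-likelihood, limma 3.58.1, R 4.3.3) over all 18 libraries with 1 mean per group, 12 residual degrees of freedom and a common biological coefficient of variation of 0.0973. Calls have a Benjamini-Hochberg adjusted p under 0.05 over all 9037 genes, which is the adjusted p printed throughout. Percentages given as background are the share of those genes called, or not overlapping, in the same direction. SE is the log2 fold change divided by the square root of its F statistic. DESeq2 1.42.0 was an alternative, as were other scalings, no filter, a non-robust fit, the compared groups alone, a replicate block and leaving out each library. The script was checked on simulated data: in a simulated HP diapause against reproductive comparison of 8829 genes it recovered 66.0% of 97 genes changed 1.5-fold and 77.8% of 99 changed 2-fold, and 10 of its 151 calls (6.62%) were false.

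The members, lists and tests were chosen with earlier results of these data known. Named members are, for each comparison, up to 5 called with the largest rise and up to 5 with the largest fall, every called member in the diapause against reproductive tests and line differences (or the 3 with the smallest p), the 5 highest and 5 lowest levels, the S18 paralogues, every member not tested or with shared exons, and, from other lists, tko, bonsai and up to 3 called genes each. Other members described by role were added after their values were seen.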

Additional observations from a re-analysis of the deposited data

Results flagged for a closer look

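The difference between 12 °C ovaries and age controls joins temperature and possibly age, and for diapause ovaries also reproductive state. It was itself different between the lines by a direct test (LP effect minus HP effect, log2) for 10 gene and comparison pairs. For diapause against age control these were mRpS6 (0.46), mRpS5 (0.417), mRpS2 (0.407) and mRpL28 (0.258). For reproductive against age control they were mRpL49 (0.521), mRpL52 (0.457), mRpS5 (0.355), mRpS2 (0.346), mRpL37 (0.293) and mRpL28 (0.278). These are 4 and 6 of 72 members, where 11.1% and 9.69% of all tested genes were called with the larger value in LP in the same 2 comparisons. The members' median differences of 0.10 and 0.15 were 0.00 and 0.06 without HP age-control replicate 2. The calls of mRpL28 in both comparisons and of mRpL52 are lost without single libraries, and those of mRpL28 in both, and of mRpL52, mRpL37 and mRpS5 in the second, are lost with total counts. No explanation was tested.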

How the results depend on the processing

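Of 83 named results of single members, none changed sign under any alternative run. Values given above from outside the 83 did change sign with total counts in diapause against age control. They included bonsai, mRpL3, mRpL27, mRpL37, mRpL49, mRpS16 and mRpS23 in LP, and mRpL23 in both lines. DESeq2, its size factors, the non-robust fit and the replicate block changed no call among the 83. Over all members, the 57 calls in HP diapause against age control became 61 (DESeq2 or its size factors), 56 (non-robust) or 59 (replicate block). The line difference in reproductive against age control went from 6 calls to 8 in DESeq2 and 7 in the non-robust fit. The numbers did not pair the libraries (45 same-numbered pairs, median correlation -0.000906, 2 over 0.1). With total counts 6 named calls were lost, without a filter 5, with the compared groups alone 4, and with 1 library left out 52 calls were lost over all pairs of result and library, while 530 pairs kept their side of the threshold. The total-count losses were mRpL4 averaged over lines (adjusted p 0.103) and the line differences of mRpL28 in diapause (0.108) and of mRpL28 (0.0681), mRpL37 (0.0666), mRpL52 (0.0638) and mRpS5 (0.056) in reproductive ovaries against age controls. Total counts moved the median to -0.00114 (LP diapause against reproductive), 0.151 and 0.182 (HP and LP diapause against age control), and 0.121 and 0.182 (HP and LP reproductive against age control), and the line difference in reproductive against age control to 2 calls. The averaged diapause against reproductive count of 1 (background 9.46% in either direction) was 0 with total counts or no filter (11.8% and 4.37%). It was 2 in DESeq2 (15.7%) and 9 with the compared groups alone (18.8%). Those groups alone gave 1 call for HP diapause against reproductive (8.04%) and 11 for LP against HP age controls (34%). Members without exon overlap were an alternative chosen after seeing the data. In LP their medians were 0.00801 (diapause against reproductive), 0.302 (diapause over age control) and 0.282 (reproductive over age control). In HP they were 0.0847, 0.236 and 0.141 in the same order. Members with overlap had 0.0535, 0.463 and 0.494 in LP and 0.0982, 0.422 and 0.341 in HP. In this last HP comparison, 14 of 30 without overlap were called higher and 4 lower, beside 31 of 42 and 0 with it. LP against HP in reproductive ovaries had a median of 0.0863 without overlap and 0.00406 with it. Leaving out 1 library gave these ranges of calls: diapause against age control 54 to 58 in LP and 47 to 64 in HP, reproductive against age control 50 to 56 in LP and 37 to 54 in HP, diapause against reproductive 0 in each line and 0 to 1 averaged, LP against HP 11 to 14 (diapause), 11 to 17 (reproductive) and 17 to 23 (age control), and line differences 0, 3 to 10 and 4 to 14 (diapause against reproductive, diapause and reproductive against age control). The medians ranged from 0.377 to 0.442 and 0.245 to 0.362 (diapause against age control, LP and HP), 0.354 to 0.404 and 0.185 to 0.299 (reproductive against age control), 0.0273 to 0.0488 and 0.0531 to 0.105 (diapause against reproductive), and -0.0352 to 0.0265, 0.0326 to 0.0521 and -0.165 to 0.0127 (LP against HP in diapause, reproductive and age control). The causes were not tested. Every tested member had at least 3821 counts over the 18 libraries, fewest in mRpL34, where counting error weighs most.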
